A study of Arabidopsis thaliana with 6 samples.

Results

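The 10 genes described here encode carriers of the inner plastid envelope that bring carbon and energy into the plastid or let them out. They were chosen by locus, with the transcript suffix removed, and are the glucose 6-phosphate translocators GPT1 (AT5G54800) and GPT2 (AT1G61800), the phosphoenolpyruvate (PEP) translocators PPT1 (AT5G33320) and PPT2 (AT3G01550), the triose phosphate translocator TPT (AT5G46110), the xylulose 5-phosphate translocator XPT (AT5G17630), the pyruvate carrier BASS2 (AT2G26900), the sodium-proton antiporter NHD1 (AT3G19490) and the ATP/ADP carriers NTT1 (AT1G80300) and NTT2 (AT1G15500). All 10 were among the 21671 genes with reads and among the 14762 that could be tested.

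RNA was measured in protoplasts, cells freed of their walls, from leaf mesophyll of Arabidopsis thaliana Col-0 plants. The GmWRI1 group carried a plasmid with the soybean GmWRI1-A cDNA behind the CaMV 35S promoter, which is active in most plant cells, and the mCHERRY group, the negative control, carried a plasmid encoding a red fluorescent protein behind the same promoter. Both groups went through the same isolation and transfection and were incubated for 16 h. Each group had 3 biological replicates, each a pool of cells, and the share of cells that took up plasmid is not given in the sources used here.

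Fatty acids are made inside the plastid, and a plastid that does not fix enough carbon of its own has to import it. Translocators of the phosphate family exchange a sugar phosphate or PEP for inorganic phosphate, BASS2 carries pyruvate together with sodium that NHD1 moves back out, and NTT proteins exchange cytosolic ATP for plastid ADP. WRINKLED1 (WRI1), of which GmWRI1 is a soybean homolog, is an AP2-type transcription factor known for raising genes of late glycolysis and fatty acid synthesis in seeds.

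WRI1 proteins are known to recognize a DNA element called the AW Box, so the regions around the member start sites were searched for it. The letters searched were CNTNGNNNNNNNCG on both strands, where N is any base, within 500 bases on either side of the annotated start of the counted isoform. Downstream of the start, 7 of 10 members held at least 1 match, beside 42.8% of 14616 tested genes with an annotated isoform and 61.9% of the 1392 up-regulated genes among them. For each of these 7 members the downstream match nearest to the start is printed with 5 bases on either side. It is written 5′ to 3′ on the strand that carries it, with the fixed letters of the element in capitals. The sequences were read from the RefSeq TAIR10.1 assembly.
PPT1: gaaggCgTtGgagactcCGtcgag
BASS2: aaacaCaTcGgaaatgaCGacagg
GPT1: agctcCgTcGatggaaaCGagaga
GPT2: atcggCcTcGtaagcttCGacttt
TPT: cactgCaTcGtcttcctCGttctc
NTT2: aaaatCtTaGgcgacacCGccatc
NHD1: cttatCcTcGgccctcaCGagaac

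The BASS2 stretch (chr2:11478102-11478125, minus strand) lay in the 5′ UTR, and its element was centred 28.5 bases after the start, the nearest of the 7. The PPT1 stretch (chr5:12588875-12588898, minus strand) was also in the 5′ UTR, with its centre at 145.5 bases. The other 5 stretches lay in coding exons. They were those of GPT2 (chr1:22824728-22824751, minus strand, centre at 325.5 bases), NHD1 (chr3:6757936-6757959, plus strand, 337.5 bases), GPT1 (chr5:22261497-22261520, minus strand, 374.5 bases), NTT2 (chr1:5326710-5326733, minus strand, 431.5 bases) and TPT (chr5:18697698-18697721, plus strand, 459.5 bases). Within 500 bases downstream PPT1 held 3 matches and GPT2 held 4, of which an overlapping pair was centred at 367.5 and 370.5 bases on opposite strands. PPT2, XPT and NTT1 held 0 matches there. Upstream of the start, GPT2, PPT2 and TPT each held 1 match, and 19.5% of tested genes held at least 1.

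A second element of the study, the CNC Box (CNCCNCC, both strands, same windows), was found downstream of the start in 9 of 10 members, and in 51.8% of tested genes. PPT1 held 6 such matches, more than any other member, and GPT1 held 0. Upstream, only GPT2 among the members held a match, beside 21.8% of tested genes. In NTT2 a CNC Box match centred at 426.0 bases overlapped the AW Box match printed above. These matches are descriptions of the sequence and do not show that a protein is bound.

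**Figure D1:**
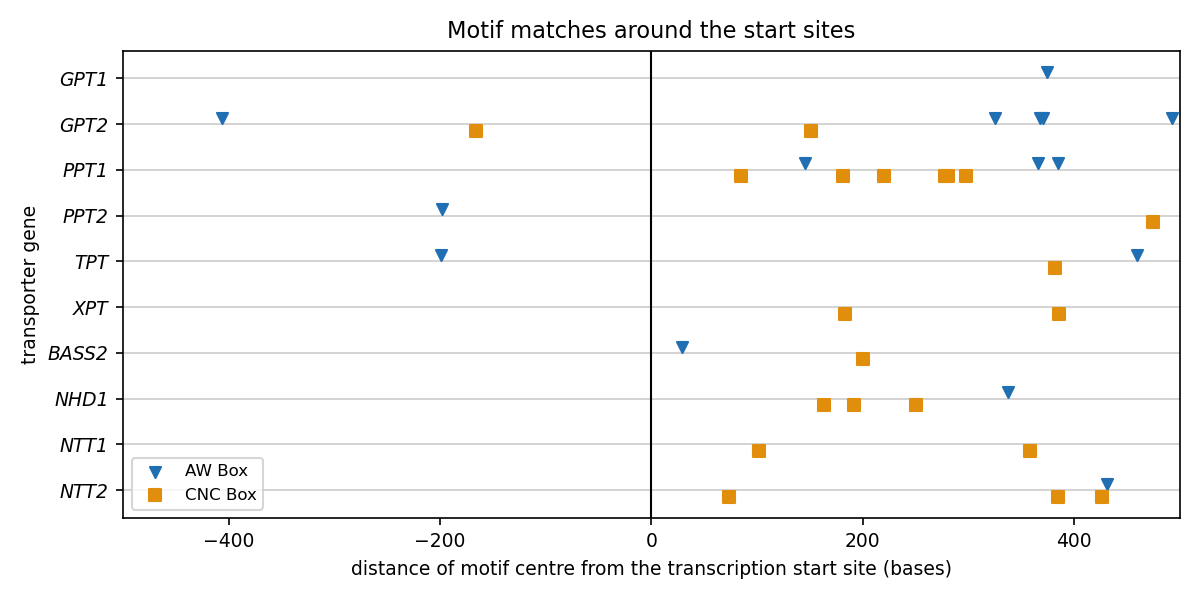
Matches to the AW Box (triangles) and the CNC Box (squares) within 500 bases of the annotated start of each member, with the distance of the match centre from the start site in bases on the horizontal axis. AW Box matches downstream of the start are seen in 7 members, whereas PPT2, XPT and NTT1 have none there.

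Libraries held 4155836 to 11748328 counts on genes, and a count of 0 allowed up to 3 counts, or 0.256 to 0.742 CPM. CPM is the count of a gene relative to the size of its library, after TMM scaling of the libraries to each other, and all log2 fold changes are GmWRI1 over mCHERRY. The 4 mesophyll markers CA1, RCA, GAPA and PSBO1 summed to 223 to 226 CPM in mCHERRY and 376 to 424 CPM in GmWRI1 libraries. The 3 epidermis, 3 guard cell and 3 vascular markers each summed to at most 3.18 CPM in any library, and 0 of these markers were at 0 in all libraries.

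In GmWRI1 protoplasts 5 of the 10 transporter transcripts were up-regulated. They were PPT1, BASS2, GPT1, TPT and NTT2, with fold changes from 2.17-fold (NTT2) to 5.65-fold (PPT1). Of these, GPT1 had enough reads for the test through its GmWRI1 libraries, where it was high. A gene was called up-regulated or down-regulated at an adjusted p-value under 0.05 with a log2 fold change over 1 in size (edgeR quasi-likelihood test, Benjamini-Hochberg adjustment over all tested genes), and 9.44% of tested genes were up-regulated. GPT2 and NHD1 passed the adjusted p-value with smaller rises, which brought the members past it to 7 higher and 0 lower, where 20.4% of tested genes were higher and 14.6% lower. By this rule 0 members were down-regulated, against 1.45% of tested genes. For 10 genes, 0 is near that share. The exact test of edgeR, its likelihood ratio test and DESeq2 also called 0 members, beside 215, 230 and 183 of all genes. An unadjusted p-value under 0.05 without the fold limit gave 0 lower members, and its share over all genes was not computed. PPT2, XPT and NTT1 did not pass the test. The median log2 fold change over the 10 members was 0.75, beside -0.01 over all tested genes.

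For 7 members the lowest GmWRI1 value exceeded the highest mCHERRY value (24.9% of tested genes), and for XPT alone the highest GmWRI1 value was under the lowest mCHERRY value (21.1% of tested genes). The 7 members that passed the adjusted p-value were the same 7 that held an AW Box downstream of the start, a description of 10 genes without a test. Of these 7 members, 5 were also up-regulated by the fold limit. Several pairings of a motif, a side and a limit were looked at. Among tested genes past the adjusted p-value alone, the share with an AW Box downstream was not computed. The study states that higher GC content downstream of the start may influence AW Box enrichment, which was not tested here. Of 9 members with a CNC Box downstream, 6 passed the adjusted p-value, and of 3 with an AW Box upstream, 2 did.

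**Figure D2:**
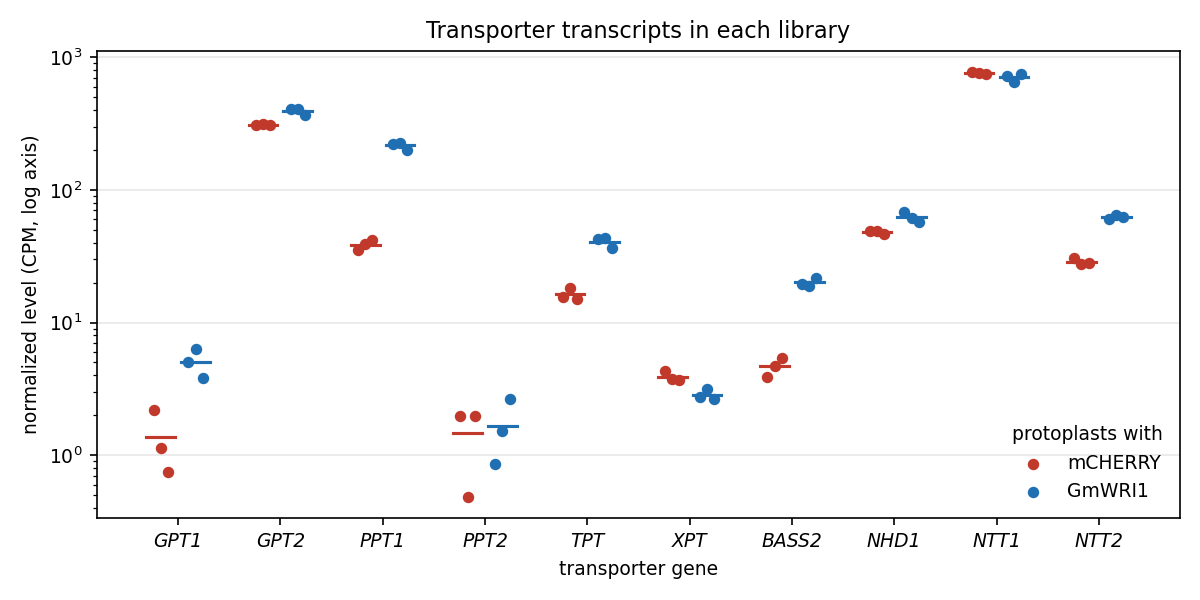
Level of each transporter transcript in CPM on a log axis, with 1 point per library and a bar at the mean of the 3 libraries of a group. The groups are well apart for PPT1, TPT, BASS2 and NTT2, while the points of PPT2 and of NTT1 overlap between groups.

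PPT1, which brings PEP from the cytosol into the plastid, had the largest change among the members. It lies on chromosome 5 (12588741 to 12591748, plus strand, 9 exons). Its level was 35.0, 39.1 and 41.8 CPM in mCHERRY libraries 1, 2 and 3, and 223, 225 and 200.4 CPM in GmWRI1 libraries 1, 2 and 3. The groups did not overlap, and the lowest GmWRI1 library was far above the highest mCHERRY library. The log2 fold change was 2.50 (SE 0.10, 95% interval 2.28 to 2.71, edgeR adjusted p = 2.63e-14), and 2.44% of tested genes had a larger one. Of the 30-base windows of its transcript, 6.70% also occur in another counted transcript, mostly AT1G43310, which held 2 counts or fewer in every library.

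PPT2, the second PEP translocator (chromosome 3, 216805 to 219136, minus strand, 9 exons), was near the limit of detection. Its reads numbered 16, 3 and 8 in mCHERRY libraries 1, 2 and 3 and 10, 11 and 13 in GmWRI1 libraries, or 0.487 to 1.98 CPM and 0.854 to 2.63 CPM. The groups overlapped. The log2 fold change of 0.03 had a 95% interval from -1.06 to 1.13 (edgeR adjusted p = 0.968), so a change of up to about the fold limit in either direction was not detectable at this depth.

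GPT1 and GPT2 exchange glucose 6-phosphate, the entry point of the oxidative pentose phosphate pathway and of starch synthesis, for phosphate. GPT1 (chromosome 5, 22261134 to 22263936, plus strand, 5 exons) had 18, 7 and 3 reads in mCHERRY libraries and 59, 46 and 19 reads in GmWRI1 libraries. Scaled, these were 2.20, 1.14 and 0.742 CPM against 5.04, 6.36 and 3.84 CPM. The lowest GmWRI1 library was above the highest mCHERRY library, although the spread within each group was wide. In mCHERRY the mean level of GPT1 (1.36 CPM) was as low as that of PPT2 (1.47 CPM), and library 3 was at the floor of 3 counts. Since mCHERRY libraries 2 and 3 held fewer than 10 counts, GPT1 passed the expression filter at 10 counts through its GmWRI1 libraries. The log2 fold change was 1.78 (SE 0.37, 95% interval 1.01 to 2.55, edgeR adjusted p = 0.000646). Without mCHERRY library 1, the control library with the highest GPT1 level, it was 2.38 (edgeR adjusted p = 0.000411), and over all libraries left out in turn it ranged from 1.57 to 2.38.

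GPT2 (chromosome 1, 22824414 to 22826902, plus strand, 5 exons) was the abundant partner. It reached 309, 312 and 311 CPM in mCHERRY libraries 1, 2 and 3, and 405, 410.1 and 367 CPM in GmWRI1 libraries. The groups did not overlap, with nearly equal values among the mCHERRY libraries. Its log2 fold change was 0.34 (SE 0.09, 95% interval 0.17 to 0.52, edgeR adjusted p = 0.00326), under the fold limit.

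TPT, known in leaves for exporting triose phosphates made by photosynthesis, lies on chromosome 5 (18697250 to 18700656, plus strand). The counted isoform is the fourth of the annotation, with 12 exons. Levels were 15.7, 18.2 and 15.1 CPM in mCHERRY libraries and 42.5, 43.0 and 36.6 CPM in GmWRI1 libraries, with no overlap. TPT thus had a log2 fold change of 1.32 (SE 0.13, 95% interval 1.04 to 1.60, edgeR adjusted p = 7.79e-08). Among the mesophyll markers, the photosynthesis genes RCA, GAPA and PSBO1 passed the adjusted p-value with log2 fold changes of 1.23, 0.88 and 0.95, and CA1 did not (-0.15, edgeR adjusted p = 0.321). Their part in the change of TPT was not tested. In RNA from pooled cells, a change in cell composition and a change in RNA per cell cannot be told apart.

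XPT, which can carry xylulose 5-phosphate between cytosol and plastid and whose gene has a single exon (chromosome 5, 5809334 to 5810962, plus strand), was the only member whose GmWRI1 libraries all lay lower. It had 4.28, 3.73 and 3.71 CPM in mCHERRY and 2.73, 3.18 and 2.63 CPM in GmWRI1 libraries, from 13 to 35 reads per library. The log2 fold change of -0.46 (SE 0.30, 95% interval -1.09 to 0.16) did not pass the test (edgeR adjusted p = 0.248).

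**Figure D3:**
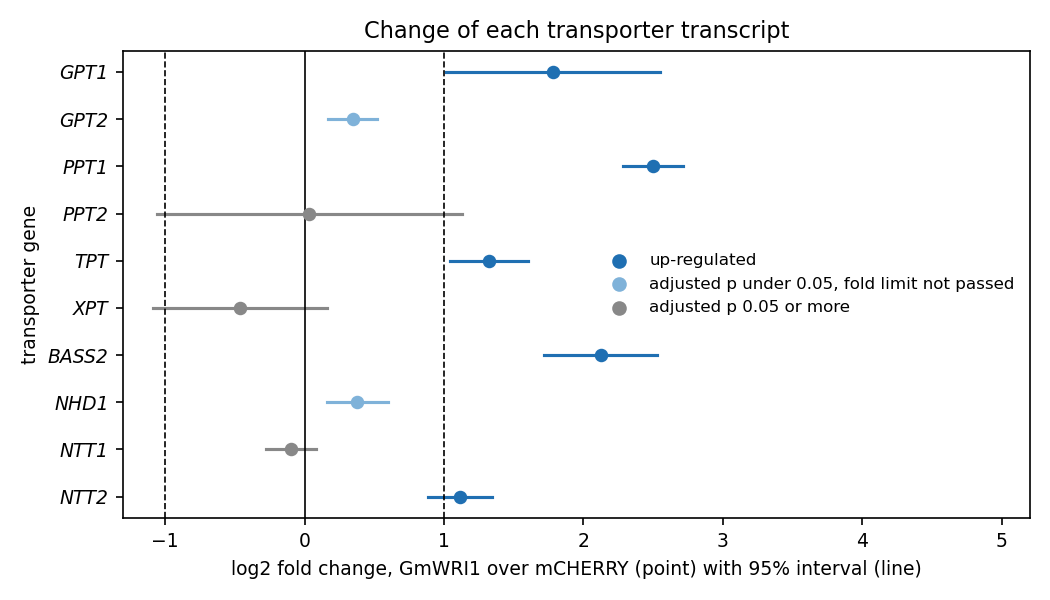
Log2 fold change of each transporter transcript, GmWRI1 over mCHERRY (points), with its 95% interval (lines), a solid line at 0 and dashed lines at the fold limit of 1 in either direction. The intervals of PPT1 and BASS2 lie well beyond 1, that of NTT2 spans it, and those of PPT2 and XPT are wide and include 0.

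BASS2, the sodium-dependent pyruvate carrier (chromosome 2, 11474752 to 11478142, minus strand, 13 exons), was the member with the second largest change. It had 3.91, 4.71 and 5.44 CPM in mCHERRY libraries 1, 2 and 3, and 19.6, 18.8 and 21.6 CPM in GmWRI1 libraries. The groups did not overlap, and the change was 4.36-fold. On the log2 scale it was 2.12 (SE 0.19, 95% interval 1.72 to 2.53, edgeR adjusted p = 1.60e-08).

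NHD1, the antiporter whose sodium export sustains pyruvate uptake by BASS2 (chromosome 3, 6754615 to 6758285, minus strand, 10 exons), rose by less. Its level was 49.0, 48.7 and 46.8 CPM in mCHERRY and 67.9, 61.7 and 57.4 CPM in GmWRI1 libraries, without overlap. This was a log2 fold change of 0.38 (SE 0.11, 95% interval 0.16 to 0.60, edgeR adjusted p = 0.00781). NHD1 overlaps the 3′ end of its neighbour AT3G19480 on the opposite strand, and 6.70% of its 30-base windows occur in that transcript in either direction. Only uniquely placed reads were counted, and the alignment settings stated in the study name no strand limit. Under those settings reads lying within the overlap would match both transcripts and be left out of both counts. AT3G19480 itself had 4.40 to 7.92 CPM and a log2 fold change of -0.04 (edgeR adjusted p = 0.919).

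NTT1 and NTT2, which supply plastids with ATP when photosynthesis does not, were measured at very different levels. NTT1 (chromosome 1, 30191538 to 30194605, plus strand, 5 exons) was the most abundant member and had 774, 760 and 743 CPM in mCHERRY and 724, 654 and 750.3 CPM in GmWRI1 libraries. The groups overlapped. The log2 fold change of -0.10 (SE 0.09, 95% interval -0.28 to 0.08, edgeR adjusted p = 0.409) did not pass the test, and its interval ended far below that of NTT2. NTT2 (chromosome 1, 5326290 to 5328875, plus strand, 5 exons) had 30.4, 27.7 and 28.2 CPM in mCHERRY and 60.6, 64.8 and 62.5 CPM in GmWRI1 libraries, with no overlap. Its log2 fold change was 1.11 (SE 0.11, 95% interval 0.89 to 1.34, edgeR adjusted p = 5.09e-08). The coding sequences matched at 85.2% of the positions of the longer one, but only 1.86% of the 30-base windows of NTT1 and 2.23% of those of NTT2 occur in another counted transcript.

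Of the 5 up-regulated members 2, namely PPT1 and BASS2, also passed a test against a log2 fold change of 1 in place of 0. This test (edgeR glmTreat) was chosen after seeing the data, and 722 of 14762 tested genes passed it upward. The adjusted p-values of GPT1, TPT and NTT2 were then 0.111, 0.0598 and 0.683, so that a change beyond 2-fold was not established for these 3.

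Because each paralog pair shares a substrate, the share of the first gene in the summed reads of its pair, per kilobase of transcript, was compared across libraries. Such a share does not depend on the scaling between libraries. NTT1 made up 95.6% ± 0.154 (SD, n = 3) of the NTT pair in mCHERRY and 90.4% ± 0.877 (SD, n = 3) in GmWRI1 libraries, a difference of -5.26 percentage points with no overlap. GPT1 made up 0.414% ± 0.230 (SD, n = 3) of the GPT pair in mCHERRY and 1.20% ± 0.235 (SD, n = 3) in GmWRI1 libraries, again with no overlap. PPT1 made up 95.9% ± 2.42 (SD, n = 3) of the PPT pair in mCHERRY and 99.1% ± 0.525 (SD, n = 3) in GmWRI1 libraries, where mCHERRY library 2 (98.6%) lay above GmWRI1 library 3 (98.5%). Over the 3 pairs the two-sided exact permutation p-values were 0.1, 0.1 and 0.2, or 0.15, 0.15 and 0.2 after Benjamini-Hochberg adjustment, and 0.1 is the smallest that 3 libraries per group allow.

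Counting error alone was small for the NTT pair. NTT1 took 96.2%, 96.5% and 96.3% of the raw reads of the pair in mCHERRY libraries, with 95% Wilson intervals that stayed between 95.6% and 97.0%. It took 92.3%, 91.0% and 92.3% in GmWRI1 libraries, with intervals between 90.2% and 93.1%. For the GPT pair the intervals overlapped between groups, since mCHERRY library 1 held 0.707% (0.448% to 1.11%) and GmWRI1 library 3 held 1.04% (0.664% to 1.61%).

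**Figure D4:**
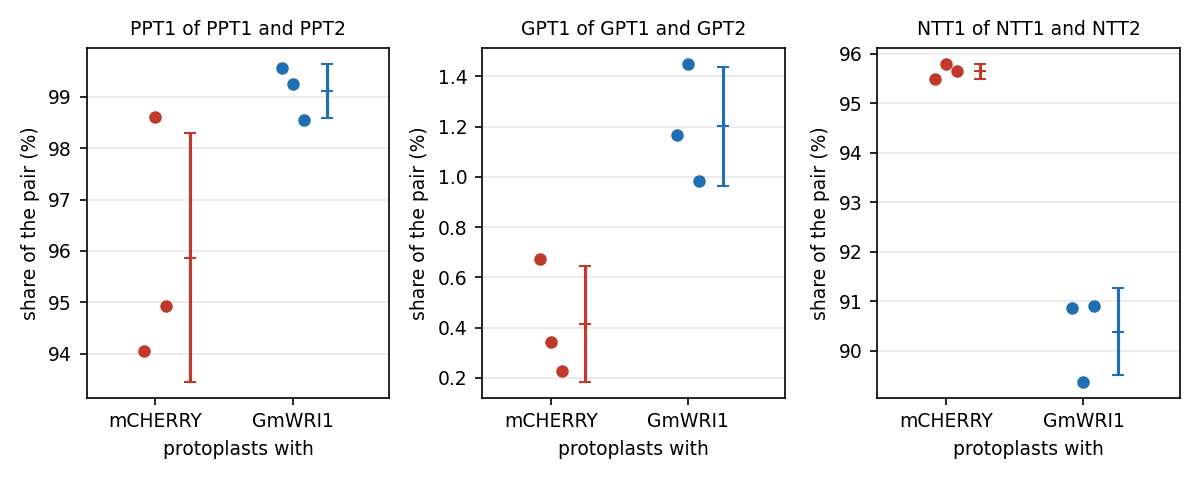
Share of the first gene in the reads of each paralog pair per kilobase, in percent, with 1 point per library and the mean ± SD of 3 libraries beside the points; each panel has its own axis range, which does not start at 0. The NTT1 share is lower and the GPT1 share higher in all GmWRI1 libraries, while the PPT1 shares overlap.

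Per kilobase of transcript, the order of member levels in mCHERRY libraries ran from NTT1 (290.2 CPM per kb) and GPT2 (180.3) through NHD1 (22.4), PPT1 (21.8), NTT2 (13.2) and TPT (8.00) to BASS2 (2.46), XPT (2.40), PPT2 (0.937) and GPT1 (0.749). The libraries of NHD1 and PPT1, of BASS2 and XPT, and of PPT2 and GPT1 overlapped, whereas those of the other neighbours in the order did not. In GmWRI1 libraries the order began with NTT1 (271 CPM per kb), GPT2 (229) and PPT1 (122), and GPT1 (2.80) stood above XPT (1.75) and PPT2 (1.06). There the libraries of NHD1 and NTT2 and those of XPT and PPT2 overlapped. Summed over the 6 phosphate translocators, levels were 368 to 375 CPM in mCHERRY and 613 to 690 CPM in GmWRI1 libraries. BASS2 and NHD1 together had 52.2 to 53.4 CPM in mCHERRY and 79.1 to 87.6 CPM in GmWRI1 libraries. The 2 ATP carriers together had 772 to 805 CPM in mCHERRY and 719 to 813 CPM in GmWRI1 libraries, mostly from NTT1.

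Other carriers of the plastid envelope were listed for comparison. Of 21 listed genes 18 had enough reads for the test. Upward 4 passed both limits and downward 0 did, by the edgeR test, DESeq2 or the other edgeR tests. Over all tested genes 9.44% were up-regulated and 1.45% down-regulated by the edgeR quasi-likelihood test. The median log2 fold change of these carriers was 0.55. The 4 were BASS3 (2.20), a relative of BASS2, TGD4 (1.20), a lipid importer, and the dicarboxylate carriers DiT1 (1.10) and DiT2.1 (1.08). Without the fold limit 13 were higher and 1 was lower, beside 20.4% and 14.6% of all tested genes. The same counts held at an unadjusted p-value under 0.05. At that unadjusted limit no share over all tested genes was computed, here or for the lists below. The 1 lower was FAX1 (-0.40, edgeR adjusted p = 0.00644), a fatty acid exporter, named here after its value was seen.

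Plastid enzymes that act on compounds these carriers can move, or on products of them, had a higher median change than the carriers. This difference was not tested, import was not measured, and the list was chosen with earlier results of these data known. Among these 23 genes, all of them tested, 14 passed both limits upward and 0 downward by the same 4 tests, with a median log2 fold change of 2.01. Over all tested genes 9.44% passed both limits upward and 1.45% downward by the edgeR quasi-likelihood test. The adjusted p-value alone gave 16 higher and 1 lower, beside 20.4% and 14.6% of all tested genes. An unadjusted p-value under 0.05 gave the same counts. The 1 lower was DHS3 (-0.26, edgeR adjusted p = 0.0404), a gene of the shikimate pathway, named after its value was seen. The largest changes were those of the pyruvate dehydrogenase E1 beta subunit PDH-E1B (5.82), the plastid pyruvate kinase subunits PKP2 (4.97) and PKP1 (4.90), the other E1 beta subunit PDH-E1B2 (4.02), the glucose 6-phosphate dehydrogenase G6PD1 (3.70) and the E1 alpha subunit PDH-E1A (2.97). By substrate, 4 of 7 genes that use glucose 6-phosphate or products made from it, 4 of 5 from triose phosphate to PEP, 3 of 6 that use PEP and 3 of 5 that use pyruvate were up-regulated.

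Carriers of pyruvate and ATP in mitochondria served as a set outside the plastid. Of 7 listed genes 6 were tested, and 0 were up-regulated or down-regulated by the edgeR tests or DESeq2. With 9.44% of all tested genes up-regulated and 1.45% down-regulated, 0 calls among 6 genes is near the shares over all genes. An unadjusted p-value under 0.05 was reached by 0 higher and 1 lower, MPC4 (-0.38, edgeR adjusted p = 0.06), named after its value was seen. The median log2 fold change was -0.03. For cytosolic enzymes that make or use PEP and pyruvate, 7 of 8 genes were tested. By the same 4 tests 0 were called in either direction, also near the shares over all genes, with a median of 0.12. Of these 7 genes 3 were higher and 3 lower by the adjusted p-value alone, beside 20.4% and 14.6% of all tested genes. The unadjusted p-value gave the same counts. PCK1, the PEP carboxykinase, came closest to the fold limit (1.00, edgeR adjusted p = 4.92e-07), also named after its value was seen. No difference between these lists and the members was tested.

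**Figure D5:**
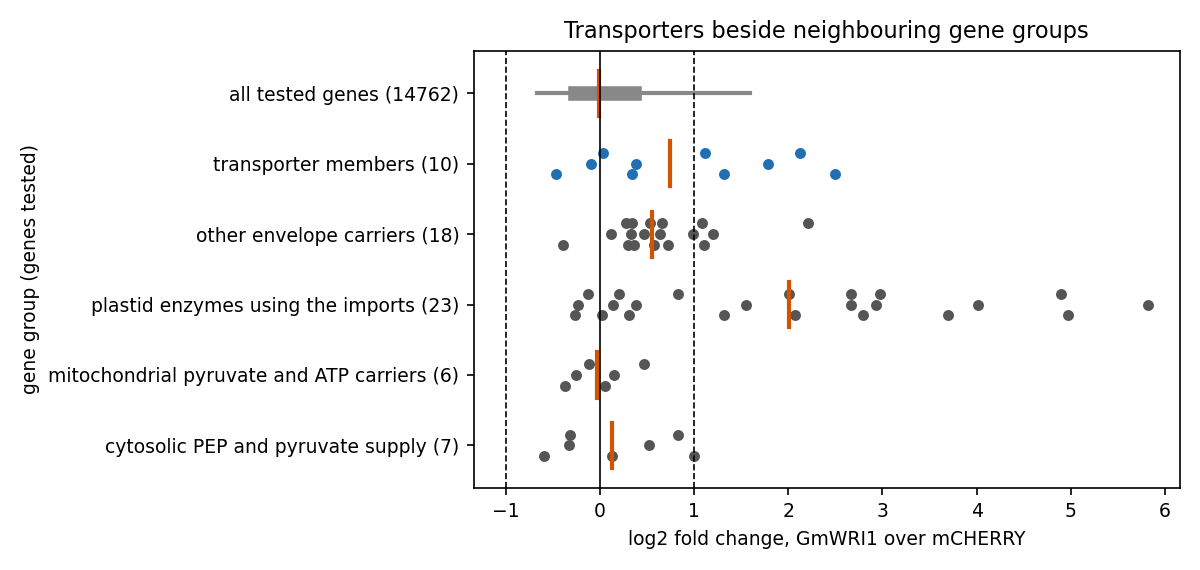
Log2 fold changes, GmWRI1 over mCHERRY, of the tested genes in each group, with 1 point per gene, an orange line at each median and dashed lines at the fold limit; for all tested genes the grey bars span the middle 50% and 90% of values. Member changes reach 2.50 (PPT1) and those of the plastid enzymes 5.82 (PDH-E1B), while the mitochondrial carriers all lie within the fold limit.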

How the data were processed

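Sample titles gave the group and the replicate number. The authors made amplified cDNA libraries from total RNA, aligned reads to TAIR10 primary transcripts with Bowtie 0.12.7 and counted uniquely placed reads, per the study's methods and the submitters' processing notes. The same notes name edgeR 3.10.5. The deposited files hold raw counts per primary transcript for each library. A line that names no gene held 39.4% to 63.3% of a file and was left out. The authors also deposited a table of normalized signal for 15541 transcripts. Its values times 1 constant per library gave whole reads for 100% of values (tolerance 0.01), and the count test on those reads with the authors' scaling called 1473 genes up-regulated and 235 down-regulated. Of the per-sample columns, 0 were without a matching sample. Read length and strand use are not given in the sources used here.

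The deposited counts went into the quasi-likelihood test of edgeR 4.0.16 (R 4.3.3; glmQLFit, glmQLFTest) with group as covariate, TMM scaling and the filterByExpr filter at 10 counts. The script was tested on simulated data. Standard errors came from the quasi-likelihood F statistic and 95% intervals from its degrees of freedom. Alternatives used DESeq2 1.42.0, other edgeR tests, scalings and filters, a replicate block, and the data without each library in turn. Start sites, coordinates, transcript lengths and sequences came from RefSeq TAIR10.1, an update of TAIR10 that keeps its nuclear chromosomes, matched by isoform. Motif letters came from the study's supplement. The 30-base windows are an illustration of sequence shared between transcripts, whose reads may not be uniquely placed. The Wilson intervals and the floor of 3 counts describe counting error alone. Amplified reads carry no molecular identifiers and can be copies of 1 molecule. The 95% intervals of the log2 fold changes also take in the spread between libraries.

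Members and gene lists were chosen with earlier results of these data known. All members are given with their value in every library. From each other list, up to 6 up-regulated genes with the largest rise and up to 4 down-regulated genes with the largest fall were named, and names outside that rule are marked. Where the labels do not say that replicates were separate cultures of separate plants, p-values measure the spread between these samples.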

Additional observations from a re-analysis of the deposited data

How the results depend on the processing

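Under the alternatives other than glmTreat, namely DESeq2 size factors, library size alone, 2 other expression filters, 3 other tests, the authors' transcripts and scaling, the replicate block and the data without each library in turn, 5 members stayed up-regulated, 0 down-regulated and 7 past the adjusted p-value alone. Testing against a log2 fold change of 1 (glmTreat) left 2 members up-regulated, 722 genes up-regulated and 25 down-regulated over all genes, and 1 of the other envelope carriers. PPT2 changed sign without mCHERRY replicate 2 (-0.38) and without GmWRI1 replicate 3 (-0.35), within a range from -0.38 to 0.45 when a library was left out, never past the threshold. The count of up-regulated genes among the cytosolic PEP and pyruvate genes was 1 with library size alone, with no expression filter and with the replicate block, and 0 to 1 when a library was left out, since PCK1 lies at the fold limit. The differences in paralog share kept their direction in all 21 values under alternatives. With raw counts in place of counts per kilobase the NTT1 difference was -4.49 percentage points, and with a library left out the PPT1 difference ranged from 2.35 to 4.62 percentage points, the latter without mCHERRY replicate 2. Depth limited GPT1, PPT2 and XPT most.

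Replicate numbers gave little evidence of pairing. Same-numbered libraries correlated at 0.103, -0.0075 and 0.0430 in their deviations from the group means, and differently numbered ones at -0.0739 to 0.0274. Replicates 1 and 3 correlated best with their own number in both groups, and replicate 2 did not. With the replicate block 1390 genes were up-regulated, against 1393, and 220 down-regulated, against 214, and not every library correlated best with its own number.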
